A study of Mus musculus with 4 samples.

Results

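The mRNAs of 36 genes of synaptic vesicles, of vesicle release and of the postsynaptic scaffold were followed in the newborn mouse brain after exposure of the dams to titanium dioxide nanoparticles (TiO2-NP). The genes were taken as a fixed list and not by a cutoff on the values below, but the list was drawn up with earlier results of these data known. Each was found on the array through the RefSeq accessions of its probes, and the probe with the highest mean log2 signal over the 4 arrays stood for the gene. All 36 had a probe, among 37059 genes and accessions without a gene name on the array, and all 36 were well above background, by the call of the scanner software, on all 4 arrays. The other probes of these genes, 29 of 65, were kept as a check.

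The mRNAs were read on one-color arrays of oligonucleotide probes, where a spot is brighter the more of its labeled target the RNA held. Pregnant C57BL/6J mice received, by intratracheal spray, 25 μL of vehicle (Sham, 5 dams) or of a TiO2-NP suspension at 4 μg/μL, that is 100 μg per mouse (TiO2-H, 6 dams), on gestational day 10.5 in the protocol, whereas the titles of the samples give day 14. Whole brains were taken on postnatal day 1, and RNA of 2 offspring of each dam was pooled into 1 array for the males and 1 for the females of each exposure. The groups shared the strain, the age and the route, the vehicle was the particle-free part of the suspension, and there was 1 pool, and so no replicate, for a given exposure and sex.

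The sex-linked mRNAs went against the labels of both TiO2-H arrays. The processed signal of Eif2s3y, a Y-linked gene, was 3519 on the array labelled Sham male and 419 on Sham female, but 6.4 on TiO2-H male and 4345 on TiO2-H female, and that of Xist, the RNA of the inactive X chromosome, was 17.9, 276, 347 and 5.36 in the same order. On the Sham female array Eif2s3y and Ddx3y stood at 12.1% and 10.2% of their scaled signal on the Sham male array. Hence "labelled male" and "labelled female" below name the labels only, and the counts that rest on both arrays of an exposure do not depend on them. The 4 arrays lay on 1 slide, with the Sham arrays in one row and the TiO2-H arrays in the other, and the exposures also differed in their dams, so that exposure, slide row and litter cannot be told apart. Between 56.2% and 61.2% of the spots of an array were well above background. In a whole brain, fewer cells of a type and less RNA per cell cannot be told apart.

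Neurons pass signals at synapses. In the presynaptic terminal, transmitter is packed into vesicles, which dock at the active zone and fuse with the membrane when calcium enters, through the SNARE proteins and their regulators. Across the cleft, adhesion proteins such as neurexins and neuroligins hold both sides in register, and scaffold proteins of the postsynaptic density anchor the receptors. In rodents most synapses form after birth, so that the newborn brain expresses these genes while synaptogenesis is still beginning.

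Windows of 250 bases before to 50 bases after an annotated transcription start were held for 28 of the 36 genes (46 windows, RefSeq, build GRCm38.p6). Many neuronal genes are held silent outside neurons by the repressor REST, which binds the RE1 element, and the window was searched on both strands for the left arm of that element, TTCAGCACC. It was found in the windows of Nlgn1, Syn1 and Unc13a, 3 of 46 windows (6.52%), against 0.371% of all 32851 windows of the same length. The GC box GGGCGG was found in 20 of 46 windows (43.5% against 35.7% of all), the TATA box TATAAA in 3 (6.52% against 13.6%) and the cAMP response element TGACGTCA in 1, that of Syn1 (2.17% against 1.79%). No matches overlapped in the windows shown. The median window of these genes held 58.3% G and C and 14.5 CpG, against 52.7% and 7 over all windows. A match is a description of the letters, and no binding was measured here. The 3 windows with the RE1 arm are shown with that of Pclo, the gene with the lowest p-value of the list among those with 1 annotated start. They lie at chr3:26153937-26154236 on the minus strand (Nlgn1, 1 of its 2 windows), chr5:14514668-14514967 on the plus strand (Pclo), chrX:20920869-20921168 on the minus strand (Syn1) and chr8:71671708-71672007 on the minus strand (Unc13a). The capitals mark the motifs, which are the RE1 arm in Nlgn1, 4 GC boxes in Pclo, the RE1 arm and then the cAMP response element in Syn1, and 2 GC boxes and the RE1 arm, all on the opposite strand, in Unc13a.
Nlgn1: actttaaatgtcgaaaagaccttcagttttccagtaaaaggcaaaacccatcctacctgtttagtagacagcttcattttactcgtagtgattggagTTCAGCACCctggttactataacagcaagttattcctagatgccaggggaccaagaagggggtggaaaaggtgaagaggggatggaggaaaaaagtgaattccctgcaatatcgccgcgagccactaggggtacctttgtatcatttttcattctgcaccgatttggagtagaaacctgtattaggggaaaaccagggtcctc
Pclo: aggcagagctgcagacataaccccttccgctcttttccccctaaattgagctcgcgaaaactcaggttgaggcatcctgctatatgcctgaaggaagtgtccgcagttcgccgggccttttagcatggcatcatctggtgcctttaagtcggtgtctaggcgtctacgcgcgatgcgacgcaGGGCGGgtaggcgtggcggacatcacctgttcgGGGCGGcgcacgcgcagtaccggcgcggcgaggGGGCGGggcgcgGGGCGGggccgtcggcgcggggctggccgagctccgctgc
Syn1: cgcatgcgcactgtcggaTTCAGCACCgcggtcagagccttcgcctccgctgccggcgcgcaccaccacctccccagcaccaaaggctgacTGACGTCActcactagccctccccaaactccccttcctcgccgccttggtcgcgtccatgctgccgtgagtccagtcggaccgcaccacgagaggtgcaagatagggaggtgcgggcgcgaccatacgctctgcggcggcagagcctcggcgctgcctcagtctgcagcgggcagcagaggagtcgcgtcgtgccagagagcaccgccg
Unc13a: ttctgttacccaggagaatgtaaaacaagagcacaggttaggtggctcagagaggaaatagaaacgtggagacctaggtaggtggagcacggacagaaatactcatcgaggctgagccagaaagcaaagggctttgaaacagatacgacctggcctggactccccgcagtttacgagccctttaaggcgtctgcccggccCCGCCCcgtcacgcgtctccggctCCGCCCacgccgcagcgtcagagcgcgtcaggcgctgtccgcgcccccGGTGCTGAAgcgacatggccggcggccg

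The synaptic genes differed little between TiO2-H and Sham, and more of them had higher than lower values after the exposure. No member passed limma at an adjusted p of 0.05, which called 0 of 26206 genes and accessions tested (0%), and the lowest adjusted p of a member was 0.327. At an unadjusted p of 0.05, limma gave 5 members with higher and 1 with lower values in TiO2-H (13.9% and 2.78%), where 8.81% and 5.83% of all tested genes had higher and lower values. Both TiO2-H arrays lay above both Sham arrays for 22 of 36 members (61.1%), against 26.4% of all tested genes. Both lay below for 6 (16.7%), against 27.5%, and the arrays overlapped for 8. When the background was limited to the 22293 genes well above background on all 4 arrays, as the members were, it was 28.7% above and 26.6% below. Without scaling of the arrays, which shifts the median of all tested genes by 0.11 on the log2 scale, the counts were 31 above and 1 below (54.9% and 7.96% of all tested genes), and Sv2a, Stx1a, Vamp2, Cplx1, Nlgn2 and Dlg4 turned from lower to higher values, so that the directions given here are relative to the bulk of the array. Without the Sham male array, 23 members were above and 10 below (37.6% and 36.8% of all tested genes), and no member had an unadjusted p under 0.05 by limma, against 10% of all tested genes. An exact two-sided permutation test of 2 arrays against 2 cannot go below p = 0.333, so that none was used for a single gene. Genes of the same arrays are not independent of each other, and no test was made over the list.

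The median log2 difference of the members, TiO2-H minus Sham, was 0.08, against -0.00074 over all tested genes. It lay between -0.46 for Shank2 and 0.24 for Rims1. Of the 36 members, 16 lay above the upper quartile of the genes above background on all 4 arrays (0.10) and 4 below the lower quartile (-0.08), and 35 lay between the 5th and 95th percentiles (-0.21 and 0.31). The difference also varied with the brightness of the probe over the whole array. Among the 2432 genes with a mean scaled signal above 4 on the log2 scale, 18.3% had both TiO2-H arrays above and 46.5% had both below, and the 11 members in that range counted 6 and 2. Among the 5233 genes from -2 to 0, the shares were 30.9% and 22.6%, and the 8 members there counted 6 and 0. The rank correlation of brightness and difference was -0.28 over the 36 members and -0.17 over the 22293 genes, which share the same 4 arrays.

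**Figure D1:**
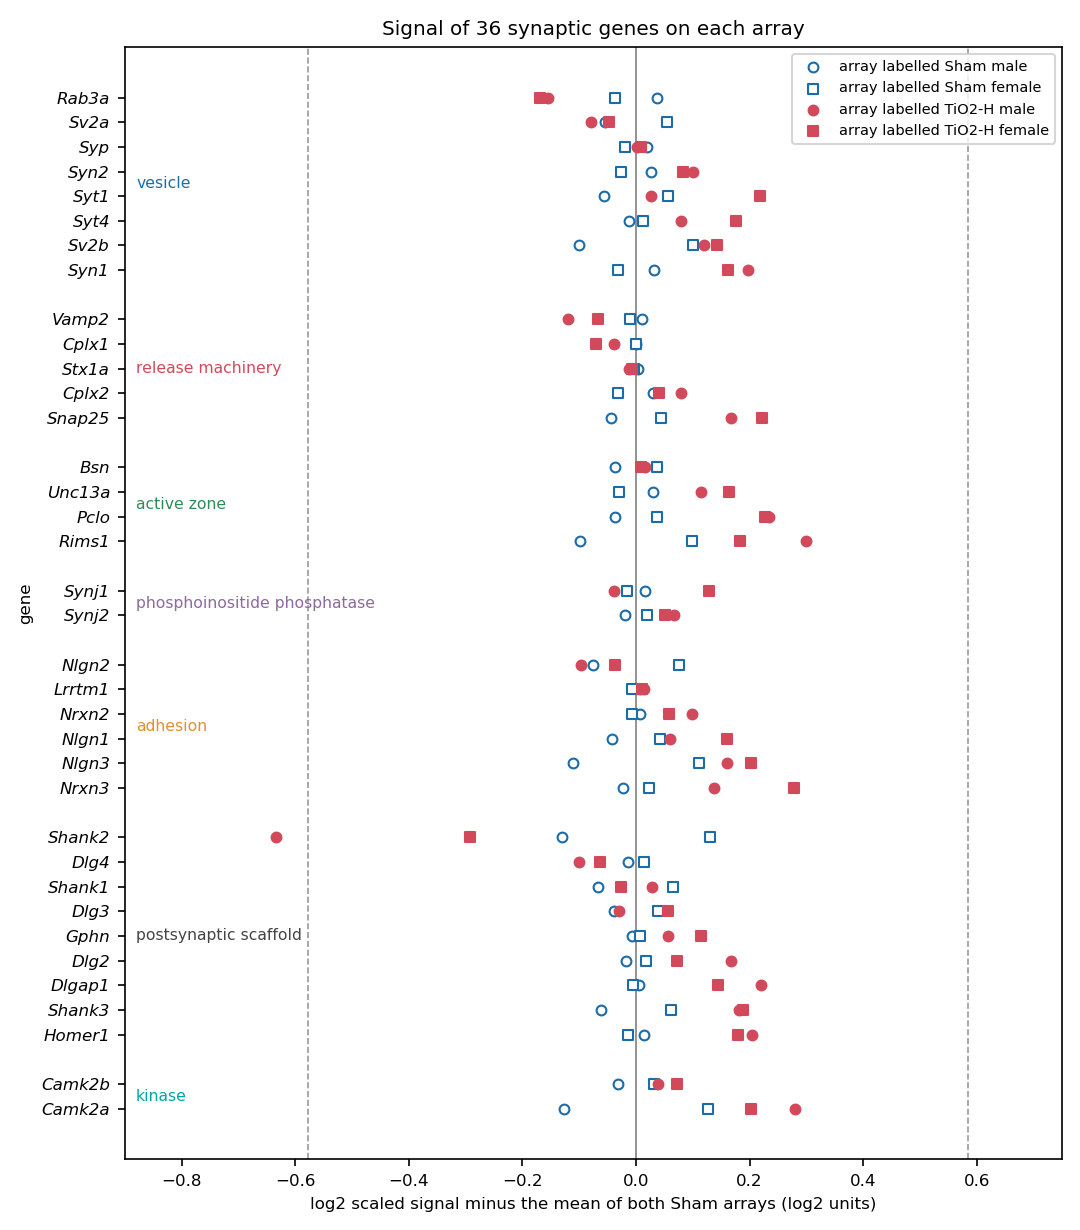
Log2 scaled signal of each of the 36 synaptic genes on each array, minus the mean of both Sham arrays (x axis, log2 units), with the genes grouped by role on the y axis; open points are Sham and filled points TiO2-H, circles the arrays labelled male and squares those labelled female, and dashed lines mark 1.5-fold and 0.67-fold. Both TiO2-H points lie to the right of both Sham points for 22 genes and to the left for 6, with Shank2 farthest to the left.

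**Figure D2:**
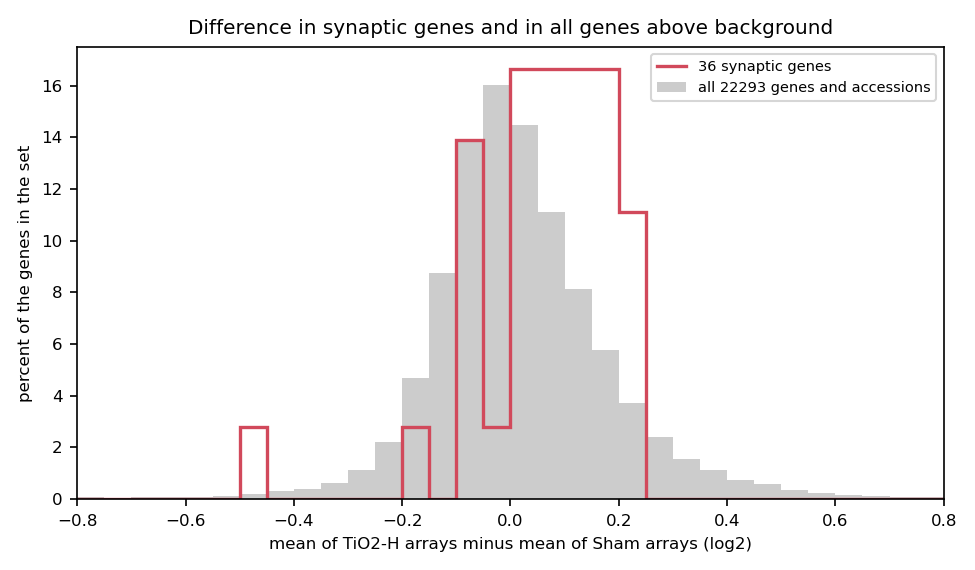
Share of genes (y axis, percent of the set) by the log2 difference of the mean of the TiO2-H arrays minus the mean of the Sham arrays (x axis, bins of 0.05), for 22293 genes and accessions above background on all 4 arrays (grey bars) and for the 36 synaptic genes (red line). The red line lies mainly between 0 and 0.25, with a median of 0.08, and 1 gene, Shank2, stands apart at -0.46.

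Values per array are given below as scaled signal, the processed signal divided by the 75th percentile of the array's spots, in the order Sham male, Sham female, then TiO2-H male, TiO2-H female. The error of a difference is the standard error (SE) of limma over 2 arrays against 2, and is given on the log2 scale. The counts by role below stand beside 26.4% of all tested genes with both TiO2-H arrays above both Sham arrays and 27.5% with both below.

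Of the 8 vesicle genes, 4 had both TiO2-H arrays above both Sham arrays, 1 had both below, and the median log2 difference was 0.11. Syn1 and Syn2 encode synapsins, phosphoproteins that tether vesicles in the reserve pool. Syn1 had scaled signals of 18.3, 17.5, 20.5 and 20.0, so that the groups did not overlap, and a log2 difference of 0.18 ± 0.05 (SE; limma unadjusted p = 0.0272, adjusted p = 0.327). Syn2 followed at 20.8, 20.0, 21.9 and 21.6, a difference of 0.09. Synaptophysin, encoded by Syp and an abundant protein of the vesicle membrane, had 22.3, 21.8, 22.1 and 22.2, and here the TiO2-H arrays lay between the Sham arrays. Of the synaptotagmins, Syt1, the calcium sensor of fast release, had 27.9, 30.1, 29.5 and 33.7 and overlapped, whereas Syt4 had 4.66, 4.74, 4.97 and 5.31 and did not overlap. Of the vesicle glycoprotein genes, Sv2b had 0.874, 1.00, 1.02 and 1.03 with both TiO2-H arrays above, a difference of 0.13 ± 0.09 (SE). Sv2a had 5.51, 5.94, 5.41 and 5.53 with overlap, a difference of -0.06 ± 0.06 (SE). Rab3a, a small GTPase of the vesicle surface, was the vesicle gene with lower values in TiO2-H, at 84.7, 80.5, 74.2 and 73.5, a log2 difference of -0.16 ± 0.05 (SE; limma unadjusted p = 0.0379, adjusted p = 0.329).

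Of the 5 genes of the release machinery, 2 had both TiO2-H arrays above (40%) and 3 had both below (60%), against 26.4% and 27.5% of all tested genes. The median log2 difference was -0.0099. Snap25, Stx1a and Vamp2 encode the SNARE proteins that form the fusion complex at the synapse. The scaled signals of Snap25 were 25.0, 26.5, 28.9 and 30.0, with both TiO2-H arrays the highest and a log2 difference of 0.19 ± 0.06 (SE; limma unadjusted p = 0.0335, adjusted p = 0.327). Its partners Vamp2, at 28.3, 27.9, 25.8 and 26.8, and Stx1a, at 6.52, 6.48, 6.44 and 6.47, had lower values in TiO2-H. Their log2 differences were -0.09 and -0.0099, with an SE of 0.04 for each, so that Stx1a was level within its error. Complexins clamp and promote fusion by binding the SNARE complex. Cplx1 lay at 13.9, 13.9, 13.5 and 13.2 and Cplx2 at 44.0, 42.2, 45.5 and 44.3, with log2 differences of -0.05 and 0.06.

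At the active zone, 3 of 4 genes had both TiO2-H arrays above both Sham arrays, none had both below, and the median log2 difference was 0.18. Rims1 encodes a scaffold that binds vesicles and calcium channels. Its scaled signals were 0.249, 0.285, 0.328 and 0.303, the highest difference of the list at 0.24 ± 0.10 (SE; limma adjusted p = 0.373), although the Sham arrays alone differed by 0.20. Pclo encodes piccolo, a very large scaffold of the active zone, and had 4.45, 4.69, 5.37 and 5.35. Here the TiO2-H arrays nearly coincided above the Sham arrays, and the difference of 0.23 ± 0.05 (SE) had the lowest unadjusted p of the list (0.0136 by limma, adjusted p = 0.327). Unc13a, which encodes the priming factor Munc13-1, had 0.161, 0.155, 0.171 and 0.177, a difference of 0.14. Bsn, which encodes bassoon, a relative of piccolo, had 2.93, 3.08, 3.04 and 3.02, with the TiO2-H arrays within the Sham range. Synaptojanins remove phosphates from inositol lipids while vesicles are recovered. Synj2 had 0.527, 0.542, 0.559 and 0.554, just above Sham, and Synj1 had 0.285, 0.279, 0.275 and 0.309, with overlap.

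Of the 6 adhesion genes, 5 had both TiO2-H arrays above both Sham arrays and none had both below, with a median log2 difference of 0.09. Neurexins are presynaptic partners of the postsynaptic neuroligins and of Lrrtm proteins. Nrxn3 had scaled signals of 5.98, 6.17, 6.68 and 7.37 and a log2 difference of 0.21 ± 0.07 (SE; limma adjusted p = 0.343), with the array labelled TiO2-H female the highest. Nrxn2, at 28.0, 27.7, 29.8 and 29.0, and Nlgn1, which is found at excitatory synapses, at 1.67, 1.77, 1.79 and 1.92, were higher in TiO2-H by 0.08 and 0.11. For Nlgn3 the values were 0.718, 0.838, 0.867 and 0.892, and the gap between the Sham arrays (0.22 on the log2 scale) was larger than the difference between the exposures (0.18). Nlgn2, the neuroligin of inhibitory synapses, had 44.5, 49.4, 43.8 and 45.6, with overlap. Lrrtm1 was nearly level at 5.68, 5.63, 5.71 and 5.70.

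The 9 scaffold genes held both the lowest and several of the higher differences, with 5 above, 2 below and a median log2 difference of 0.09. Shank2 encodes a master scaffold that links receptor complexes to the actin skeleton. Its scaled signals were 0.0690, 0.0827, 0.0487 and 0.0617, the lowest difference of the list at -0.46 ± 0.17 (SE; limma unadjusted p = 0.0676, adjusted p = 0.357). Both TiO2-H arrays lay below both Sham arrays, but its processed signals of 42.2 to 65.7 were near the lowest signals well above background on these arrays (23.3 to 31.7), its scanner error was the largest of the list (0.37 on the log2 scale for the arrays labelled male), and it had 1 probe. Its relatives had other values. Shank3 had 0.887, 0.966, 1.05 and 1.05, a difference of 0.18 ± 0.06 (SE; limma adjusted p = 0.342), and Shank1 had 0.319, 0.350, 0.341 and 0.328, with overlap.

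The membrane-associated guanylate kinases anchor receptors at the postsynaptic density. Dlg4, which encodes PSD-95, the main one of the mature synapse, was lower in TiO2-H at 2.62, 2.68, 2.47 and 2.54, a log2 difference of -0.08. Dlg2, which encodes PSD-93, was higher at 2.22, 2.28, 2.53 and 2.37, a difference of 0.12, and Dlg3, which encodes SAP102, the form most used early in life, overlapped at 14.4, 15.2, 14.5 and 15.4. The SEs of Dlg4, Dlg2 and Dlg3 were 0.04, 0.05 and 0.06, and whether these 3 close relatives differed from each other was not tested. Dlgap1 binds the guanylate kinase domain of the Dlg proteins, and Homer1 links Shank to metabotropic glutamate receptors. Dlgap1 had 1.80, 1.78, 2.08 and 1.98 and Homer1 had 1.97, 1.93, 2.25 and 2.21, with differences of 0.18 ± 0.05 and 0.19 ± 0.04 (SE), and limma gave unadjusted p-values of 0.0273 and 0.0145 and an adjusted p of 0.327 for each. Gphn encodes gephyrin, the scaffold of inhibitory synapses, and had 6.84, 6.90, 7.14 and 7.44, without overlap. The listed subunits of calcium/calmodulin-dependent kinase II, Camk2a and Camk2b, were higher in TiO2-H at their brightest probes. For each, the gap between the Sham arrays (0.254 and 0.062 on the log2 scale) was larger than the difference between the exposures (0.241 and 0.055). Camk2a, the subunit typical of mature forebrain, had 0.235, 0.280, 0.312 and 0.295, a difference of 0.24 ± 0.11 (SE; limma adjusted p = 0.402), and Camk2b, which is expressed earlier, had 46.7, 48.8, 49.0 and 50.1, a difference of 0.06.

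The differences were next taken within each sex label, as the study did, with 1 array on each side and no test. At its brightest probe, no member reached 1.5-fold or 0.67-fold. The study counted mRNAs by accession, and its lists of mRNAs upregulated at 1.5-fold include Synj2 in males and females and Nlgn3 in males. On its CpG island arrays the methylation of Synj2 was decreased in both sexes. Its later quantitative PCR of enriched methylated DNA detected no significant difference for Synj2, although the study saw a seeming decrease in females. Each of these genes has a dimmer probe that stood apart from its brightest one, as described below. For Nlgn3 it did so on the array labelled TiO2-H female. On the arrays labelled male that probe had scaled signals of 0.0601 in Sham and 0.0896 in TiO2-H, and the brightest probe differed 1.21-fold. Which probe the study's male listing rests on was not tested. Among all genes compared, 3.63% reached 1.5-fold and 2.91% reached 0.67-fold on the arrays labelled male, and 2.37% and 2.86% on those labelled female. These shares include dim genes. Of the 22293 genes above background on all 4 arrays, as the members were, only 371 and 211 did so under the male label and 239 and 245 under the female label. The log2 differences of the members lay between -0.50 and 0.41 (median 0.08) on the arrays labelled male and between -0.42 and 0.26 (median 0.07) on those labelled female. Of the 36 members, 24 were higher and 8 lower under both labels, and 4 differed in direction, against 35%, 33.4% and 31.6% of the genes above background on all 4 arrays. Rims1 and Camk2a were the members nearest to the upper threshold, with 1.32-fold and 1.33-fold under the male label and 1.06-fold and 1.05-fold under the female label. Shank2 was nearest to the lower one, at 0.706-fold and 0.746-fold. The scanner software's own error of such a log2 ratio ranged from 0.20 to 0.37 over the members. Under the male label, 9 members differed by more than it (Sv2b, Snap25, Rims1, Pclo, Nlgn3, Dlgap1, Shank2, Shank3 and Camk2a), and under the female label 2 did, Nrxn3 and Shank2. Among the genes above background on all 4 arrays, 17.5% and 17.6% differed by more than their scanner error under the male and female labels.

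**Figure D3:**
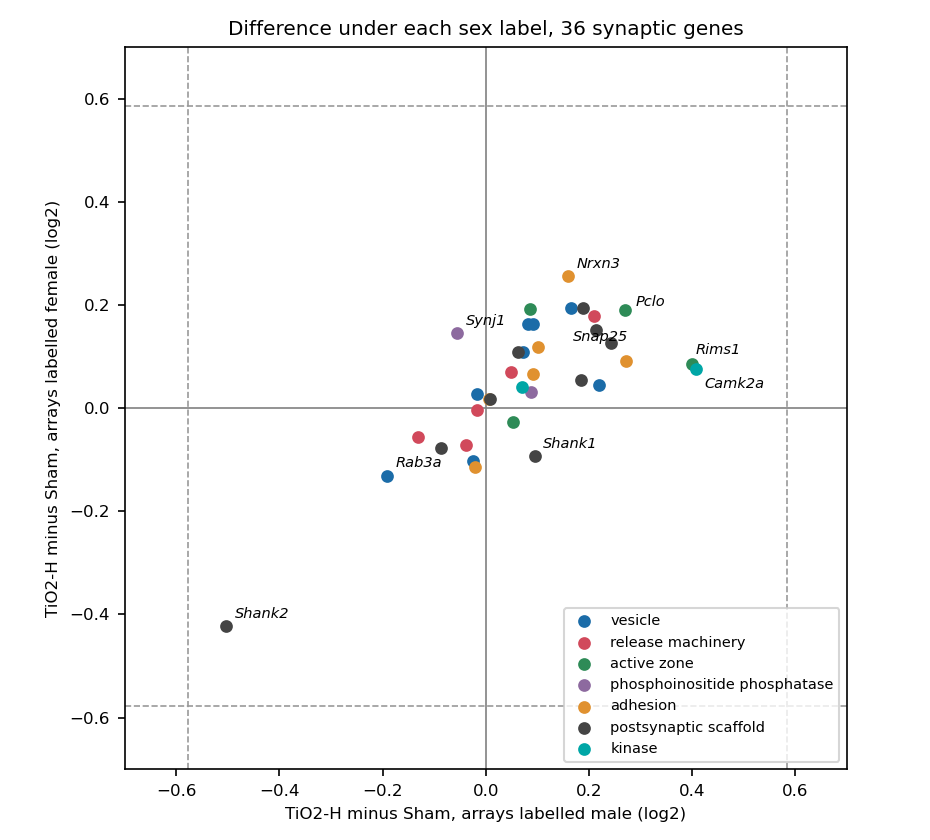
Log2 difference TiO2-H minus Sham of the 36 synaptic genes on the arrays labelled male (x axis) and female (y axis), coloured by role, with dashed lines at 1.5-fold and 0.67-fold. All points lie inside the dashed lines, 24 in the upper right quadrant and 8 in the lower left, and Shank2 lies alone at -0.50 and -0.42.

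The arrays of 1 exposure were compared in the same way. Between the Sham arrays, the median size of the members' log2 difference was 0.06 and between the TiO2-H arrays 0.04, against 0.09 and 0.10 for TiO2-H against Sham under the male and female labels. Over all genes above background on all 4 arrays these sizes were 0.07 and 0.06 within Sham and TiO2-H and 0.10 under each label, also larger between than within exposures. No member passed 1.5-fold or 0.67-fold within either exposure, where 5.62% (Sham) and 5.49% (TiO2-H) of all genes compared did. Of the 22293 genes above background on all 4 arrays, 454 (Sham) and 324 (TiO2-H) did. The members farthest apart within an exposure were Shank2, at 0.26 between the Sham arrays and 0.34 between the TiO2-H arrays, and Camk2a, at 0.25 between the Sham arrays.

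The other probes of the same genes gave a check, although the part or isoform of the mRNA that each reads was not known here. A total of 15 members had 2 or more probes. All of these but Shank1 had both TiO2-H arrays above both Sham arrays at the brightest probe. The 6 members with both below had 1 probe each, so that the check did not cover them. Of the 29 other probes, 25 were well above background on all 4 arrays, and these belong to 13 genes. Of the 25, 18 had both TiO2-H arrays above both Sham arrays, 2 had both below and 5 overlapped, with a median log2 difference of 0.20. Among all 7116 probes of the array that were above background on all 4 arrays and not the brightest of their gene, 29.7% had both above and 23.3% both below, with a median of 0.02. Those probes were not limited to genes whose brightest probe was higher in TiO2-H, so that the shares do not compare like with like. All 4 probes of Cplx2, all 3 of Dlgap1 and both of Rims1, Nrxn2 and Dlg2 had both TiO2-H arrays above. The second probe of Rims1 had scaled signals of 0.175, 0.198, 0.271 and 0.236, which was 1.55-fold under the male label and 1.20-fold under the female label. The 4 probes of Pclo differed by 0.23, 0.29, 0.05 and 0.39 on the log2 scale. Camk2a and Camk2b had second probes at -0.07 and -0.06, opposite in direction to their brightest probes.

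For 5 members the probes parted by more than 0.58 on the log2 scale in at least 1 comparison. The second probe of Nlgn3 stood at 0.0601, 0.0652, 0.0896 and 0.351, high on the array labelled TiO2-H female alone. That of Shank3 stood at 0.384, 0.0428, 0.0753 and 0.0621, high on the array labelled Sham male alone, whereas the brightest probe of Shank3 was printed in 10 spots on each array and had none of this. Shank1 had a second probe at 0.308, 0.203, 0.203 and 0.194, again high on Sham male alone, and another at 0.126, 0.120, 0.168 and 0.139. The 2 dimmer probes of Synj2 were not above background on every array, with scaled signals of 0.0322, 0.0215, 0.0661 and 0.0744 for the second and 0.0302, 0.0220, 0.0839 and 0.0206 for the other. The 6 probes of Nrxn3 ranged from -0.10 to 0.30, and the third, at 1.46, 1.34, 1.32 and 1.29, was the one above background on all arrays with lower values in TiO2-H.

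**Figure D4:**
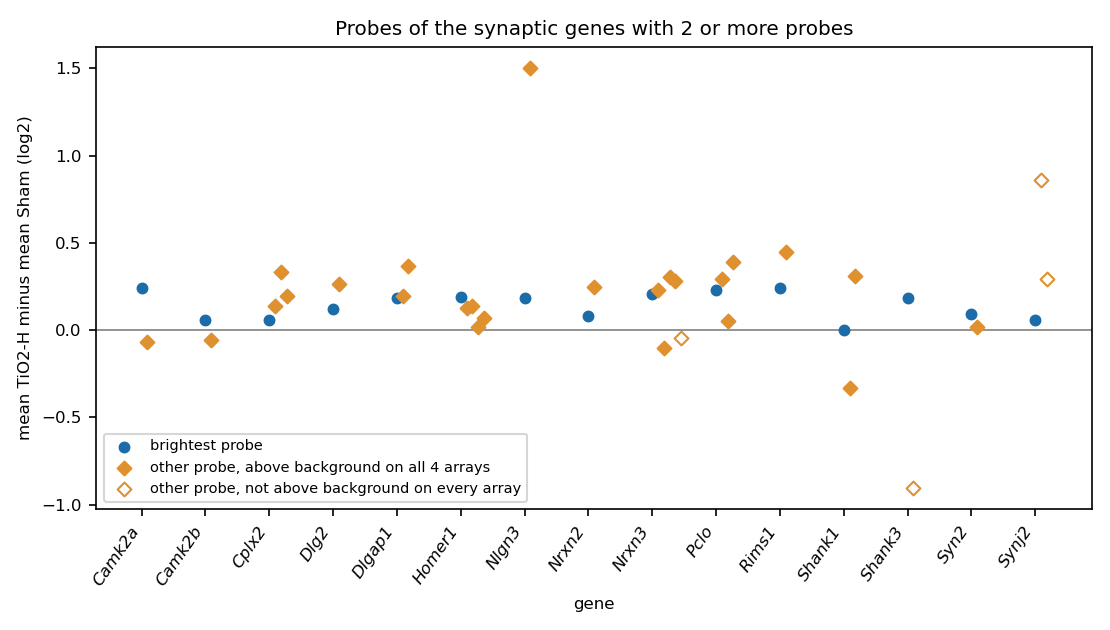
Mean log2 difference TiO2-H minus Sham (y axis) of every probe of the 15 synaptic genes with 2 or more probes (x axis); blue circles are the brightest probe of each gene, filled diamonds other probes above background on all 4 arrays and open diamonds other probes that were not. Most probes lie between 0 and 0.45, and the second probes of Nlgn3 (1.5), Shank3 (-0.91) and Synj2 (0.86) stand apart.

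Partner genes of the same pathways were listed as well, as 87 genes of vesicle release, the active zone, endocytosis, adhesion and scaffolds. Of these, 84 had a probe and 82 were tested. No partner passed limma at an adjusted p of 0.05, and at an unadjusted p of 0.05 there were 9 with higher and 1 with lower values (11.0% and 1.22% of those tested, against 8.81% and 5.83% of all tested genes). Both TiO2-H arrays lay above both Sham arrays for 35 (42.7%) and below for 14 (17.1%), against the 26.4% and 27.5% of all tested genes, and the median log2 difference was 0.06. Among the 78 partners well above background on all 4 arrays, 35 were above and 13 below, against 28.7% and 26.6% of such genes. The remaining partner below, Cplx4, was well above background on 1 array only. None of the partners was past the fold threshold in the same direction under both labels. Among the partners with the largest differences were Il1rapl1, Cadm3, Unc13b and Unc13c. Il1rapl1, a postsynaptic adhesion gene, had scaled signals of 0.0721, 0.0742, 0.217 and 0.0734, so that its log2 difference of 0.79 came from the array labelled TiO2-H male alone. Unc13b and Unc13c encode further Munc13 priming factors, and had 3.57, 3.64, 4.38 and 4.56 and 0.509, 0.522, 0.610 and 0.638, differences of 0.31 and 0.28. Cadm3, an adhesion gene, had 2.66, 3.30, 3.94 and 3.63 at its brightest probe and 2.83, 2.85, 3.07 and 3.0 at its other.

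Markers of the cell types of the brain were measured beside these genes, and their part in the differences was not tested. Their counts stand beside 26.4% of all tested genes with both TiO2-H arrays above both Sham arrays and 27.5% with both below. All 10 neuronal markers were well above background on all 4 arrays, so that the labelled tissue carried its defining mRNAs. Their summed scaled signal was 542.5 to 551.7 in Sham and 551.2 to 559.9 in TiO2-H, with 5 of 10 above and 1 below and a median log2 difference of 0.03. The 8 oligodendrocyte lineage markers summed to 22.6 on both Sham arrays and to 24.2 and 24.9 in TiO2-H (4 above, 0 below, median 0.08), and the 6 microglia markers to 13.2 to 13.6 and 14.4 to 14.5 (5 above, 1 below, median 0.11). The 8 markers of radial glia and astrocytes summed to 157.3 to 165.9 in Sham and 171.3 to 174.0 in TiO2-H. Of these, 4 were above and 2, Aldh1l1 and Gfap, below, with a median of 0.05. The sums rest mainly on Fabp7, by far the brightest of the list, at 6.52, 6.37, 6.61 and 6.64 on the log2 scale. Meninges markers were above for 4 of 4, with a median of 0.11, and summed to 21.1 and 20.8 in Sham and 22.2 and 22.7 in TiO2-H. Endothelial markers had 3 of 6 above and 1 below, with a median of 0.14. Their sums overlapped, at 22.8 and 21.7 in Sham and 22.8 and 22.1 in TiO2-H. Blood markers, of which 4 of 6 had a probe, summed to 62.5 and 60 in Sham and to 51.4 and 51.8 in TiO2-H, and the 3 tested had 0 above, 2 below and a median of -0.25. The 4 choroid plexus markers had 1 above and 1 below.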

How the data were processed

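Pooled brain RNA was labeled with Cy3 and hybridized to 1 array per group. The authors made the deposited intensity values with Agilent Feature Extraction 10.10.1.1, which subtracts background and removes spatial trends. Their deposited value table held the same intensity at all 59305 spots that are not controls. Here, log2(processed signal) minus the log2 of the 75th percentile of the array's non-control spots was used. Outlier spots (138 to 181 per array) were dropped, no spot was saturated, spots of a probe were averaged, and a dim probe took the array's lowest signal well above background (23.3 to 31.7) unless its own was higher. Of 22765 RefSeq accessions, 94.3% found a name in the RefSeq gene table of GRCm38.p6. Genes were tested where at least 1 of 4 arrays was well above background. limma 3.58.1 in R 4.3.3 compared 2 TiO2-H with 2 Sham arrays without a sex term, with Benjamini-Hochberg adjustment over 26206 genes, and was tested on simulated data. The number of arrays limits the precision, and p-values measure the spread between these pools only. Within a sex label, the study's thresholds of 1.5-fold and 0.67-fold were used. The remaining steps ran in Python 3.11.15 (pandas 2.3.3, numpy 2.4.6). The labels write the concentration per litre, and the methods' unit was used.

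The members, the partner and marker lists and the rules were chosen with earlier results of these data known. Every member was named. Further probes were described for members whose probes parted by over 0.58, or that were named in the check of the other probes, the latter chosen after their values were seen. Of the partners, those past a threshold in the same direction under both labels and the 5 with the largest mean difference among those detected so on each of the 4 arrays were named, except for 1 that is not reported here. The printed promoter windows and the motifs were also chosen later. Alternatives tried were median scaling, no scaling, quantile normalization, normexp with an offset of 50 on the median signals (the files held no mean signal), a filter on all 4 arrays, no filter and no floor, the mean of a gene's probes, outlier spots kept, the deposited table, each array left out, sex as labelled or crossed as a block, an intensity trend, a 2-fold threshold, arrays paired across the labels and, chosen after seeing the data, cyclic loess. No per-sample columns were left out. CpG island arrays were not analysed here.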

Additional observations from a re-analysis of the deposited data

Results flagged for a closer look

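Under the sex labels, 4 of the 36 synaptic genes differed from Sham in opposite directions, with 1 array on each side, and the difference between the labels was not tested. The log2 difference TiO2-H minus Sham was -0.02 on the arrays labelled male and 0.03 on those labelled female for Syp, a gap of 0.0448. For Bsn it was 0.05 and -0.03, a gap of -0.081. For Synj1 it was -0.06 and 0.14, a gap of 0.20, and for Shank1 it was 0.09 and -0.09, a gap of -0.19. Each of these gaps was below the scanner error of a single log2 ratio over the members (0.20 to 0.37), and the sex-linked mRNAs went against the labels of both TiO2-H arrays.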

How the results depend on the processing

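The labels carry no replicate numbers, and arrays were paired by sex label alone. With sex as a block, as labelled or crossed within TiO2-H, 5 and 2 members had an unadjusted p under 0.05 in limma (9.81% and 8.91% of all tested genes). The count of members at an adjusted p of 0.05 stayed at 0 in limma under all 17 alternatives fitted, and the lowest adjusted p of a member ranged from 0.141 (intensity trend) to 0.509 (sex crossed as a block). At an unadjusted p of 0.05, with the share of all tested genes in parentheses, 6 members stood in the main setting (14.6%), 0 without the Sham male array (10%), 1 without the TiO2-H male array (12.1%), 2 without the TiO2-H female array (9.51%), 6 without the Sham female array (10.6%), 2 with no filter (8.85%), 9 with the mean of probes (14.2%), 10 with normexp (18.2%) or with a filter on all 4 arrays (18.6%), 13 with an intensity trend (18.9%) and 21 without scaling (24.9%). Scaling mattered most for direction. Without scaling, the median of all tested genes moved from -0.00074 to 0.11, that of the members from 0.08 to 0.20, and 31 members had both TiO2-H arrays above and 1 below (partners 67 and 2), with 6 members changing sign, so directions here are relative to the 75th percentile of the array. Under the other settings with all 4 arrays, the members above counted 19 to 23 and those below 6 or 7. With 1 array left out, 22 to 26 members were above and 6 to 10 below, the 10 without Sham male, and the median was 0.06 to 0.08, where 36.1% to 39.8% of all tested genes were above and 36.8% to 41.8% below. Under 3 alternatives the count of members at 1.5-fold or more, or at 0.67-fold or less, under a label went from 0 to 1. Shank2 was at 0.656 on the arrays labelled male after quantile normalization, and at 0.589 where the array labelled TiO2-H male was set against Sham female. With the mean of a gene's probes, Synj2 (1.61) and Shank3 (0.482) on the arrays labelled male and Nlgn3 (2.39) on those labelled female passed, each through a probe described above as standing apart, and Shank3 changed sign (0.18 to -0.36). Elsewhere at most 3 members changed sign under a setting, and apart from Shank3 these had differences between -0.07 and 0.06. Dim probes such as that of Shank2 carry the largest error.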
